A study of Mus musculus with 18 samples.

Results

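The cytosolic ribosomal proteins were examined in bulk RNA-seq of mouse liver tumours. Members were chosen by name, as protein-coding genes called Rpl or Rps plus a number (with the endings a, l, x or y), Rplp0 to Rplp2 or Rpsa, with at least 10 counts summed over the 12 libraries. Of 83 genes with such names, 80 passed, 48 of the large (60S) subunit and 32 of the small (40S) subunit, among 15992 protein-coding genes that met the same minimum. The 3 left out were the paralogs Rpl3l, Rpl39l and Rpl10l, with 6, 2 and 0 counts over all libraries, while the least counted member, Rpl22l1, had 19295. The rule used no comparison between groups, and all 80 members passed the filter on low counts that preceded the tests. Rps6, Rplp1 and Rps19, which stand for the group as markers, were counted in all 12 libraries, at 62.3 to 524 CPM (a level defined with the library sizes).

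The libraries came from hepatocellular carcinomas of 2 models, with 3 controls and 3 Prom1 depletion libraries in each. In the DEN+CCl4 model mice received N-nitrosodiethylamine (DEN), a carcinogen, at 1 mg/kg and 14 days of age, and from 8 weeks of age 0.2 ml/kg carbon tetrachloride (CCl4), a liver toxin. For the N-Ras+AKT model, hydrodynamic injection into the tail vein brought DNA for N-RasV12 (20 µg), myr-AKT (20 µg) and a transposase (1.6 µg) into hepatocytes. Depletion rests on tamoxifen (4 mg doses), which activates Cre recombinase in cells that use the Prom1 promoter and so switches on diphtheria toxin A, a toxin that kills the cell by stopping translation elongation. Tumours were taken 16 days after the last dose in the DEN+CCl4 model and 6 days after it in the N-Ras+AKT model. The strain label gives Prom1C-L/+;Rosa26DTA/+ for all bulk libraries, controls included, whereas the design text names Prom1+/+;Rosa26DTA/+ littermates and a vehicle, so what the controls lacked is not settled. The labels do not say whether the libraries of a group came from separate mice, so p-values measure the spread between these libraries, which may be technical.

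Each ribosome carries a copy of nearly every one of these proteins, built onto ribosomal RNA in the nucleolus, and their mRNAs are among the most abundant of a growing cell. Most of these mRNAs begin with a run of pyrimidines, the 5′ terminal oligopyrimidine (TOP) motif, through which mTORC1 signalling controls their translation. In hepatocytes, AKT and Ras signalling feed into mTORC1 and into ribosome production.

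Library totals were 31306617 to 48055812 counts. Levels are given as CPM, counts relative to the library size scaled by TMM factors (0.773 to 1.323). Prom1, the gene of the depleted cells, had 60.1, 76.7 and 48.9 CPM in DEN+CCl4 controls 7, 8 and 13 and 17.4, 39.98 and 35.7 CPM in depletion libraries 6, 9 and 10. It had 45.4, 59.2 and 78.3 CPM in N-Ras+AKT controls 3, 10 and 15 and 5.81, 16.5 and 2.17 CPM in depletion libraries 6, 11 and 17. All depletion libraries thus lay below the controls of their model. The hepatocyte markers (8 genes, Alb and Apoa1 among them) summed to 264474 to 326243 CPM in the DEN+CCl4 controls and 104487 to 117328 CPM in the N-Ras+AKT controls, and none of the 8 was at 0 in any group. In these bulk tumours, fewer cells of a type and less RNA per cell cannot be told apart.

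The 80 members together held a small share of each library. In DEN+CCl4 controls 7, 8 and 13 they held 0.874%, 0.995% and 0.934% of the counts, and in depletion libraries 6, 9 and 10 they held 1.45%, 1.24% and 1.03%. In N-Ras+AKT controls 3, 10 and 15 the share was 2.49%, 1.97% and 2.11%, and in depletion libraries 6, 11 and 17 it was 1.54%, 1.88% and 1.20%. The DEN+CCl4 controls were lowest and the N-Ras+AKT controls highest, with no overlap between any group and the DEN+CCl4 controls. Other genes that take many counts moved as well: a gene for ribosomal RNA held 12.4%, 7.32% and 3.02% of the DEN+CCl4 control libraries but 1.16% to 3.05% of the N-Ras+AKT controls, and the 10 most counted genes held 33.6% to 38.6% against 20.1% to 21.1%. With the ribosomal RNA gene left out of the totals, the DEN+CCl4 control mean was 1.01% of counts. The counts of 40S members per count of 60S members stayed between 0.599 and 0.636 in all 12 libraries.

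**Figure D1:**
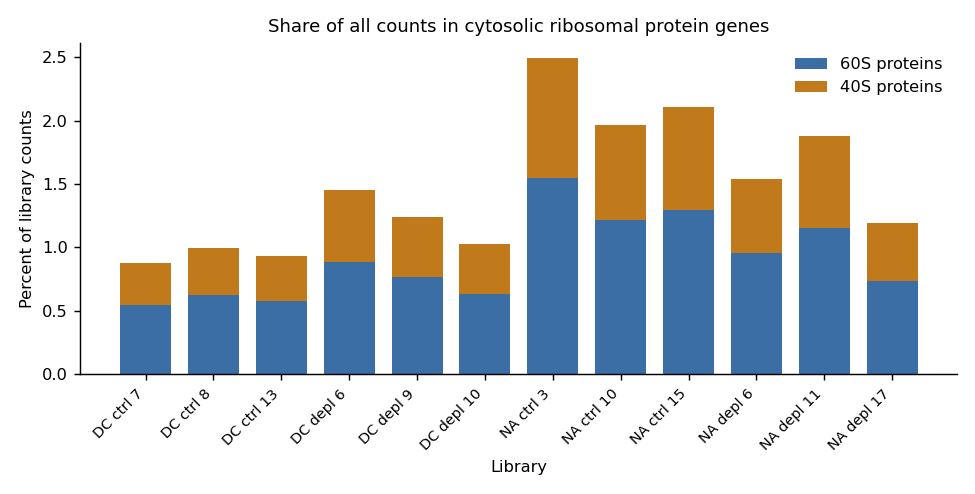
Share of each library's counts held by the 48 large-subunit (60S, blue) and 32 small-subunit (40S, orange) members, in percent of library counts, for 12 libraries named by model (DC, DEN+CCl4; NA, N-Ras+AKT), group and replicate number. The N-Ras+AKT controls reach 1.97% to 2.49%, the DEN+CCl4 controls 0.874% to 0.995%, and the split between subunits is nearly the same in each bar.

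Set against the length of the transcript, most members lay in a narrow band. The median over the members was 233 CPM per kilobase, 220 for the 60S and 243 for the 40S proteins, and 72 of 80 members were within 2-fold of the median. The highest levels per kilobase were those of Rpl10 (539), a protein added late to the 60S subunit, Rps6 (405), Rpl41 (390), the shortest of the ribosomal proteins, Rplp1 (381) and Rps12 (379). At the low end were Rps20 (29.5), Rpl7l1 (41.2), Rpl22l1 (66.0), Rps19 (71.3) and Rps3 (107). These levels use the annotated transcript with the longest coding sequence. With the summed length of all exons instead, the median was 88.7 CPM per kilobase, and 1 of the 5 highest and 4 of the 5 lowest genes were again among the 5. The rank of Rps20 rests on a transcript of 3706 bases, the longest used for any member. Those of Rpl7l1, Rps19 and Rps3 also rest on long ones (1310, 1284 and 1908 bases), where the median over the members is 731.5. The transcript of Rpl22l1 had 552 bases.

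The members varied as a block. Within groups, the first principal component of their log2 CPM held 78.04% of the variance, and 68 of 80 members correlated above 0.8 with the median of the others over the 12 libraries. These libraries share depth scaling and tissue composition, and the values are a description. Against the DEN+CCl4 control mean, the median member was at −0.02, 0.03 and −0.02 (log2) in controls 7, 8 and 13. It was at 0.43, 0.20 and 0.12 in DEN+CCl4 depletion 6, 9 and 10, at 0.83, 0.51 and 0.48 in N-Ras+AKT controls 3, 10 and 15, and at 0.28, 0.60 and −0.02 in N-Ras+AKT depletion 6, 11 and 17. N-Ras+AKT depletion 17 sat at the level of the DEN+CCl4 controls. Of the 80 members, Rpl7l1 followed the block least (correlation −0.23), before Rps2 (0.10) and Rplp2 (0.25).

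**Figure D2:**
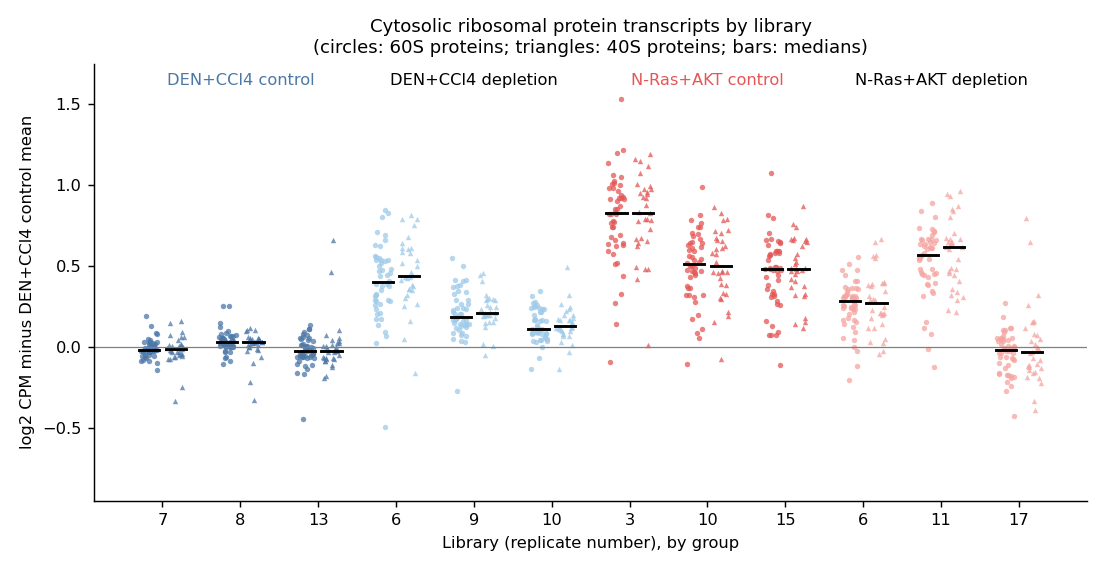
Log2 CPM of each member minus its DEN+CCl4 control mean (y axis) in 12 libraries (x axis, replicate numbers), with circles for 60S proteins, triangles for 40S proteins and bars for medians. The 60S and 40S medians lie close together in every library, N-Ras+AKT control 3 is highest at 0.83 for both, and N-Ras+AKT depletion 17 lies at the level of the DEN+CCl4 controls.

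The start of transcription was examined because the members moved together. RefSeq promoters (GRCm38.p6) were found for 60 of the 80 members. A run of at least 5 pyrimidines that begins with C within 5 bases before to 10 bases after the annotated start, on the gene's strand, stood in 51.7% of these 60 and in 23.4% of all 27025 promoters. In the 300 bases from 250 before to 50 after the start, on both strands, the ETS factor core CCGGAAG stood in 24 of 60 members against 9.12% of all promoters, CTCTTTC in 28.3% against 8.01%, the GC box GGGCGG in 61.7% against 35.9%, and TATAAA in 10.0% against 14.2%. These are matches of letters, not sites of binding. The sequences from 60 bases before to 20 bases from the start are shown for members whose values are given in the next paragraphs, 5′ to 3′ on the gene's strand, with the pyrimidine run at the start and any CCGGAAG in capitals. They are Rps6 (chr4:86857348-86857427, minus strand), Rplp2 (chr7:141447591-141447670, plus strand), Rpl12 (chr2:32961652-32961731, plus strand), Rpl22l1 (chr3:28805448-28805527, plus strand), Rps27l (chr9:66946026-66946105, plus strand) and Rps19 (chr7:24884532-24884611, plus strand).
Rps6: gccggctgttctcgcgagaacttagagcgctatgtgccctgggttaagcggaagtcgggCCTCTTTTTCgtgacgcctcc
Rplp2: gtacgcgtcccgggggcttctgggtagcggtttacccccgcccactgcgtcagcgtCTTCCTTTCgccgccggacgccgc
Rpl12: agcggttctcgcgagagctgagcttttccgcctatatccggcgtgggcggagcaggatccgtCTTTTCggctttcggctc
Rpl22l1: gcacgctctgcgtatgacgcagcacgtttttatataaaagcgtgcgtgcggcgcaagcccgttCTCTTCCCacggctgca
Rps27l: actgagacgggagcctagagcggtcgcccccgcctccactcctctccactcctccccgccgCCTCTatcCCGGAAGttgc
Rps19: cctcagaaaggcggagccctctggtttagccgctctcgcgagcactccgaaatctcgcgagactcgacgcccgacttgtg
Of these 6, all but Rps19 hold such a run, Rplp2 included, which followed the other members little (correlation 0.25). Rps19 moved with the block and has no such run in this window.

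Between the controls of the tumour models, most ribosomal protein transcripts were higher in N-Ras+AKT than in DEN+CCl4 tumours. By edgeR's quasi-likelihood test with Benjamini-Hochberg adjustment over 17013 genes, 63 of 80 members passed at an adjusted p under 0.05, all 63 higher, where 20.8% of all genes tested passed as higher, 19.8% as lower and 40.6% in either direction. The median log2 difference was 0.60 (1.52-fold), against 0.04 over all genes tested. Of the 60S proteins 38 of 48 passed (median 0.62), and of the 40S proteins 25 of 32 (median 0.60). In 75 of 80 members all N-Ras+AKT controls lay above all DEN+CCl4 controls, against 28.4% of all genes tested.

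The largest difference of the 60S proteins was that of Rpl22l1, a paralog of Rpl22 that can take its place in the ribosome. It had 28.8, 30.1 and 18.5 CPM in DEN+CCl4 controls 7, 8 and 13 and 72.9, 50.05 and 53.2 CPM in N-Ras+AKT controls 3, 10 and 15, a 2.27-fold difference (log2 1.19, SE 0.22, adjusted p = 0.00180). The groups were well apart, with control 13 lowest and control 3 highest. Rpl39, a small protein at the exit tunnel, was at 67.9, 67.6 and 57.1 CPM against 147, 110 and 111 CPM (log2 0.94, adjusted p = 0.00149). Rpl23a, also at the tunnel exit, was at 151, 167 and 143 CPM against 357, 256 and 270 CPM (log2 0.94, adjusted p = 0.00190). Rpl12, at the base of the stalk that recruits translation factors, was at 147, 164 and 162 CPM against 346, 263 and 257 CPM (log2 0.87, adjusted p = 0.00477). In each of these genes N-Ras+AKT control 3 was the highest library.

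Among the 40S proteins, Rps19, whose human counterpart is mutated in Diamond-Blackfan anaemia, differed most. It had 69.9, 65.0 and 62.3 CPM in the DEN+CCl4 controls and 147, 120 and 110 CPM in the N-Ras+AKT controls (1.91-fold, log2 0.93, SE 0.19, adjusted p = 0.00224). Rps20, of the head of the subunit, was at 76.7, 83.6 and 74.5 CPM against 179, 135 and 124 CPM (log2 0.90, adjusted p = 0.00295). Rps6, the substrate of the S6 kinases, was at 288, 314 and 309 CPM against 524, 394 and 420 CPM, or 303 ± 13.7 against 446 ± 68.6 CPM (SD, n = 3; log2 0.56, SE 0.19, adjusted p = 0.0348). The call on Rps6 ended without DEN+CCl4 control 7, 8 or 13 (adjusted p = 0.107, 0.0710 and 0.0788) and without N-Ras+AKT control 3 or 15 (0.123 and 0.0509). The groups of Rps6, Rps19 and Rps20 did not overlap, as was so in 75 of 80 members.

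The P stalk proteins did not move together between the controls. Rplp1 and Rplp2 are acidic proteins that bind Rplp0 as pairs and form the arm that contacts elongation factors. Rplp1 was at 141, 146 and 144 CPM in the DEN+CCl4 controls and 281, 235 and 215 CPM in the N-Ras+AKT controls (1.69-fold, log2 0.76, SE 0.14, adjusted p = 0.00142). Rplp2 was at 68.6, 71.5 and 66.3 CPM against 76.1, 64.1 and 63.6 CPM, a log2 difference of −0.02 (SE 0.12, adjusted p = 0.914). For Rplp2 the groups overlapped, for Rplp1 they did not. The sign of Rplp2 depends on the scaling: with library totals in place of TMM factors its log2 difference was 0.63. The median of all genes tested was then 0.68, against 0.04 with TMM factors, so Rplp2 lay below that median on both scales. Without DEN+CCl4 control 8 or N-Ras+AKT control 10 or 15 the difference of Rplp2 was 0.01, 0.02 and 0.02. Rplp0 differed by 0.47 (log2, adjusted p = 0.0482).

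Of the members that passed, the smallest differences were those of Rpl9 (log2 0.40, adjusted p = 0.0397), Rpl7a (0.42, adjusted p = 0.0407), Rpl10 (0.44, adjusted p = 0.0438), Rps10 (0.45, adjusted p = 0.04996), Rps4x (0.46, adjusted p = 0.0159) and Rplp0. Rps4x, which the X chromosome encodes, was at 204, 219 and 217 CPM in the DEN+CCl4 controls and 298, 287 and 298 CPM in the N-Ras+AKT controls, with libraries of a group close to each other. Of the other members that did not pass, the smallest differences were those of Rpl7l1, a relative of Rpl7 (log2 0.01, SE 0.14, adjusted p = 0.959), Rps2 (0.15, SE 0.31, adjusted p = 0.728) and Rpl8 (0.15, SE 0.16, adjusted p = 0.470). Rpl7l1 was at 55.3 ± 2.46 CPM in the DEN+CCl4 controls and 55.7 ± 3.45 CPM in the N-Ras+AKT controls (SD, n = 3), and its sign changed under 5 of the alternatives. Rpl8, a protein next to the peptidyl transferase centre, was at 190, 181 and 201 CPM against 230, 206 and 200 CPM, with the groups touching at their edges. The count of members called fell to 40 without DEN+CCl4 control 7 and to 41 without N-Ras+AKT control 3, and 38 of the 63 kept their call in each of the 12 fits that left out 1 library. With library totals as the scale all 80 members passed, as did 10460 of 17013 genes. The member median was 1.25, while the median of all genes tested moved to 0.68. Relative to that shift the members were 0.57 higher.

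Cell type markers and total RNA composition differed between the same libraries. The bile duct markers (Krt19, Krt7, Sox9, Epcam and Spp1) passed as higher in N-Ras+AKT controls in 5 of 5, and their sum was 7096 to 10254 CPM against 177 to 478 CPM. The hepatocyte markers passed as lower in 7 of 8. The 4 erythroid markers all passed as higher (146 to 509 CPM in sum against 35.8 to 64.7 CPM), while the proliferation markers passed in 0 of 5 (48.3 to 237 against 43.0 to 72.2 CPM). No marker of these lists was at 0 in a whole group. The part of these differences in the members' levels was not tested.

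**Figure D3:**
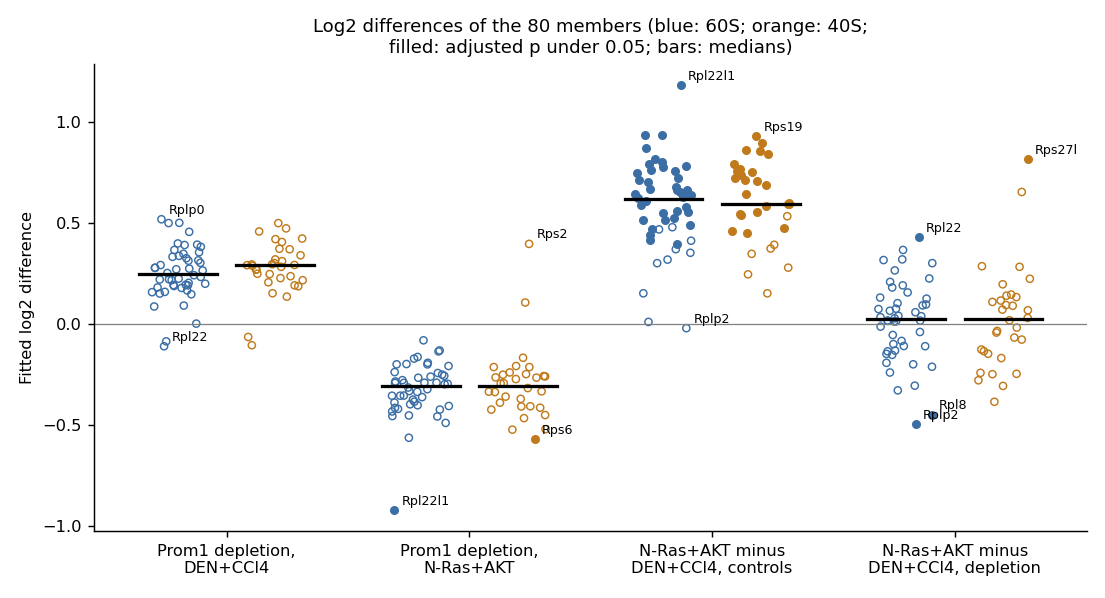
Fitted log2 differences (y axis) of the 80 members in 4 comparisons (x axis), with 60S proteins in blue, 40S proteins in orange, filled points for adjusted p under 0.05 and bars for medians. The member medians are 0.27 and −0.31 for depletion in DEN+CCl4 and N-Ras+AKT, 0.60 between the controls and 0.02 between the depletion groups.

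Prom1 depletion in the DEN+CCl4 model gave no member past the test. By edgeR's quasi-likelihood test 0 of 80 members passed, where 0.37% of all genes tested passed (0.112% as higher, 0.259% as lower). In that test 13 of 80 members had an unadjusted p under 0.05, as had 3186 of 17013 genes. DESeq2 called 2 members, Rpsa and Rplp0, and 1038 of 16773 genes. The fitted differences were mostly of 1 sign: 76 of 80 members were above 0, against 8324 of 17013 genes. Since the members vary as a block, they are not independent of each other. Counts of signs and of groups without overlap, here and in the other comparisons, are therefore a description. The median was 0.27 (1.21-fold), 0.25 for the 60S and 0.29 for the 40S proteins, against −0.01 over all genes tested. In 62 members every depletion library lay above every control and in 0 members below, where the shares among all genes tested were 11.5% and 16.0%.

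Depletion library 6 lay furthest from the controls. Rplp0, the centre of the stalk, was at 270, 282 and 309 CPM in controls 7, 8 and 13 and 510, 405 and 320.3 CPM in depletion 6, 9 and 10 (log2 0.52, SE 0.17, adjusted p = 0.151). Rpsa, of the 40S subunit and also known as a laminin receptor, was at 301, 323 and 313 CPM against 540.0, 428 and 358 CPM (log2 0.50, SE 0.17, adjusted p = 0.145). Rps6 was at 439, 346 and 330.0 CPM after depletion (log2 0.29, SE 0.19, adjusted p = 0.436). Rpl12 was at 249, 230 and 191 CPM against 147 to 164 CPM (log2 0.50, SE 0.20, adjusted p = 0.206). In all 4 genes depletion 6 was highest and depletion 10 the nearest to the controls. Without depletion 6 the member median was 0.17, and without depletion 10 it was 0.34.

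Rplp1 was at 176, 163 and 158 CPM after depletion against 141 to 146 CPM in the controls (log2 0.21, SE 0.14, adjusted p = 0.459), and Rps19 at 94.0, 76.4 and 71.3 CPM against 62.3 to 69.9 CPM (log2 0.29, SE 0.18, adjusted p = 0.422). For both the groups did not overlap, but the test did not pass. The lowest differences were those of Rpl22 (log2 −0.11, SE 0.15, adjusted p = 0.743) and Rps2 (−0.10, SE 0.31, adjusted p = 0.897). The sign of Rpl22 changed with library totals (0.02), where the median of all genes tested was 0.12. That of Rps2 changed without control 13 (0.31). Depletion 6 also stood apart in its proliferation markers, which summed to 5.29 CPM against 52.1 and 127 CPM in depletion 10 and 9. Its bile duct markers summed to 31.6 CPM, against 96.6 and 139 CPM. Other lists differed between the whole groups without overlap, although no marker of any list passed the test here. The endothelial markers summed to 243 to 251 CPM in the controls and 79.0 to 172 CPM after depletion, the erythroid markers to 35.8 to 64.7 and 3.24 to 14.2 CPM, and the bile duct markers to 177 to 478 and 31.6 to 139 CPM. Mitochondrially encoded genes held 5.04% to 5.55% of counts in the controls and 7.14% to 7.55% after depletion. The part of these in the members' levels was not tested.

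Prom1 depletion in the N-Ras+AKT model gave 2 members that fell and none that rose. Rpl22l1 and Rps6 passed edgeR's quasi-likelihood test as lower, 2 of 80, where 10.8% of all genes tested passed as lower and 23.7% in either direction. Of the 80 fitted differences 78 were below 0, against 8835 of 17013 genes. The median was −0.31 (0.81-fold) for the members as for the 60S proteins alone and −0.30 for the 40S proteins. It was −0.02 over all genes tested. In 18 members every depletion library lay below every control and in 0 above, where 21.5% and 21.4% of all genes tested did so. The share of members whose groups did not overlap was thus near the background.

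Rpl22l1 was at 72.9, 50.05 and 53.2 CPM in controls 3, 10 and 15 and at 32.1, 38.5 and 22.4 CPM in depletion 6, 11 and 17. With depletion it fell to 0.528 of its control level (log2 −0.92, SE 0.22, adjusted p = 0.0143), and all depletion libraries lay below all controls. The call ended without control 3 (adjusted p = 0.0562) and without depletion 17 (0.0507), with log2 differences of −0.73 and −0.74. Rps6 was at 524, 394 and 420 CPM against 294, 376 and 232 CPM and fell by 0.57 (log2, SE 0.19, adjusted p = 0.0480). Control 3 was the highest and depletion 17 the lowest library, with depletion 11 the nearest to the controls. The call on Rps6 was close to the threshold: it held without depletion 11 (adjusted p = 0.0177), control 10 (0.0446) or DEN+CCl4 depletion 6 (0.0376). It ended without any of the other 9 libraries, at adjusted p from 0.0570 to 0.183.

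Nearest to these were Rpl12 (log2 −0.56, SE 0.20, adjusted p = 0.0598) and Rps15a (−0.52, SE 0.18, adjusted p = 0.0566). Rpl12 was at 346, 263 and 257 CPM in the controls and 201, 245 and 140 CPM after depletion. Rplp1 was at 211, 235 and 173 CPM after depletion against 281, 235 and 215 CPM (log2 −0.24, SE 0.14, adjusted p = 0.238). Rps19 was at 96.0, 118 and 69.1 CPM against 147, 120 and 110 CPM (log2 −0.41, SE 0.18, adjusted p = 0.124). In Rplp1 and Rps19 depletion 11 reached into the range of the controls. The members highest after depletion relative to control were Rps2 (log2 0.40, SE 0.32, adjusted p = 0.387) and Rps27l (0.11, SE 0.12, adjusted p = 0.569). With the counts of its pseudogenes added, Rps2 was at 0.12 (SE 0.12, adjusted p = 0.505).

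The size of the shift and the number of members that passed turned on single libraries. The member median was −0.18 without depletion 17, −0.19 without control 3 and −0.47 without depletion 11. Without depletion 11 the count was 28, all lower, and without depletion 17 or control 3 it was 0. With library totals as the scale 31 members passed, with the median of all genes tested at −0.23 on that scale, and DESeq2 called 7. Bile duct markers moved with the libraries: their sum was 7096 to 10254 CPM in the controls, 2136 and 3466 CPM in depletion 6 and 11 and 297 CPM in depletion 17, and 3 of 5 passed as lower. The Kupffer cell markers (Clec4f, Vsig4, Marco and Cd5l) passed as higher in 4 of 4, from 36.4 to 142 CPM in sum to 258 to 392 CPM. Their part in the members' differences was not tested.

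The depletion effects of the models lay in opposite directions in 76 of 80 members, above 0 in DEN+CCl4 and below 0 in N-Ras+AKT. No such count was made over all genes, and members that vary as a block are not independent of each other. The difference between the effects, N-Ras+AKT minus DEN+CCl4, was tested in the same fit. The models also differ in the time after the last dose (16 and 6 days), which cannot be told apart from the model. The median difference was −0.59 over the members and −0.03 over all genes tested. An unadjusted p under 0.05 was found for 61 of 80 members and 4940 of 17013 genes. After adjustment 2 of 80 passed, both as lower, where 3.6% of all genes tested passed as lower, 7.98% as higher and 11.6% in either direction. These were Rpl22l1 (log2 −1.14, SE 0.31, adjusted p = 0.0387) and Rpl12 (−1.06, SE 0.28, adjusted p = 0.0323). For Rpl12 the depletion libraries had 249, 230 and 191 CPM against 147 to 164 CPM in the DEN+CCl4 controls, and 201, 245 and 140 CPM against 257 to 346 CPM in the N-Ras+AKT controls. Every depletion library of Rpl12 lay above the controls of the one model and below the controls of the other. Rps6 came next at −0.86 (SE 0.27, adjusted p = 0.0581).

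That count was the least stable of all. It was 39 without N-Ras+AKT depletion 11, 0 without any of 7 other libraries (DEN+CCl4 control 7 or 13, DEN+CCl4 depletion 6 or 9, N-Ras+AKT control 3, N-Ras+AKT depletion 6 or 17), 25 by DESeq2 and 64 with library totals. Without N-Ras+AKT depletion 17 the adjusted p was 0.0674 for Rpl22l1 and 0.0532 for Rpl12. Leaving out both DEN+CCl4 depletion 6 and N-Ras+AKT depletion 17, the libraries with the highest and lowest member levels of their groups, gave 0 calls and a median of −0.37. As these libraries were picked by their member levels, a smaller difference follows from the choice and is no test of it. Over the fits that left out 1 library, the adjusted p was 0.0220 to 0.0861 for Rpl22l1 and 0.0148 to 0.0846 for Rpl12.

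Between the depletion groups of the models, the median log2 difference of the members, N-Ras+AKT minus DEN+CCl4, was 0.02, against 0.03 over all genes tested. Its sign and size turned on single libraries. It was −0.13 without N-Ras+AKT depletion 11, −0.026 without DEN+CCl4 depletion 10, 0.14 without N-Ras+AKT depletion 17 and 0.12 without DEN+CCl4 depletion 6. Without both of the last libraries it was 0.22, but these were picked by their member levels, so a rise follows from the choice. By edgeR's quasi-likelihood test 2 members passed as higher and 2 as lower, where 17.9% and 15.8% of all genes tested did so (33.7% in either direction). Of the 63 members that passed between the controls, 44 were above 0 here. Of all 80 members 46 were above 0, and of all genes tested 8873 of 17013. With library totals the median was 0.34 and 16 members passed, but the median of all genes tested was then 0.35. A single member lay above without overlap and a single one below, where 24.3% and 22.3% of all genes did so.

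The highest was Rps27l, a paralog of Rps27 that p53 is known to induce. It was at 44.99, 50.8 and 49.1 CPM in DEN+CCl4 depletion 6, 9 and 10 and 78.8, 97.8 and 78.9 CPM in N-Ras+AKT depletion 6, 11 and 17 (1.76-fold, log2 0.82, SE 0.13, adjusted p = 0.000591). Rpl22 was at 71.0, 56.1 and 61.7 CPM against 85.2, 99.1 and 70.0 CPM (log2 0.43, SE 0.15, adjusted p = 0.0440), with depletion 6 of DEN+CCl4 just above depletion 17 of N-Ras+AKT. The lower ones were Rplp2 and Rpl8. Rplp2 was at 94.6, 79.2 and 76.7 CPM against 63.4, 63.0 and 51.3 CPM (log2 −0.50, SE 0.12, adjusted p = 0.00898), with no overlap. Rpl8 was at 308, 241 and 202 CPM against 187, 206 and 158 CPM (log2 −0.45, SE 0.16, adjusted p = 0.0492). The calls on Rps27l and Rplp2 held with each library left out. That on Rpl22 ended without any of 8 libraries (adjusted p up to 0.165, without N-Ras+AKT depletion 11), and that on Rpl8 held only without DEN+CCl4 depletion 10 or N-Ras+AKT depletion 11 and reached 0.189 without DEN+CCl4 depletion 6.

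**Figure D4:**
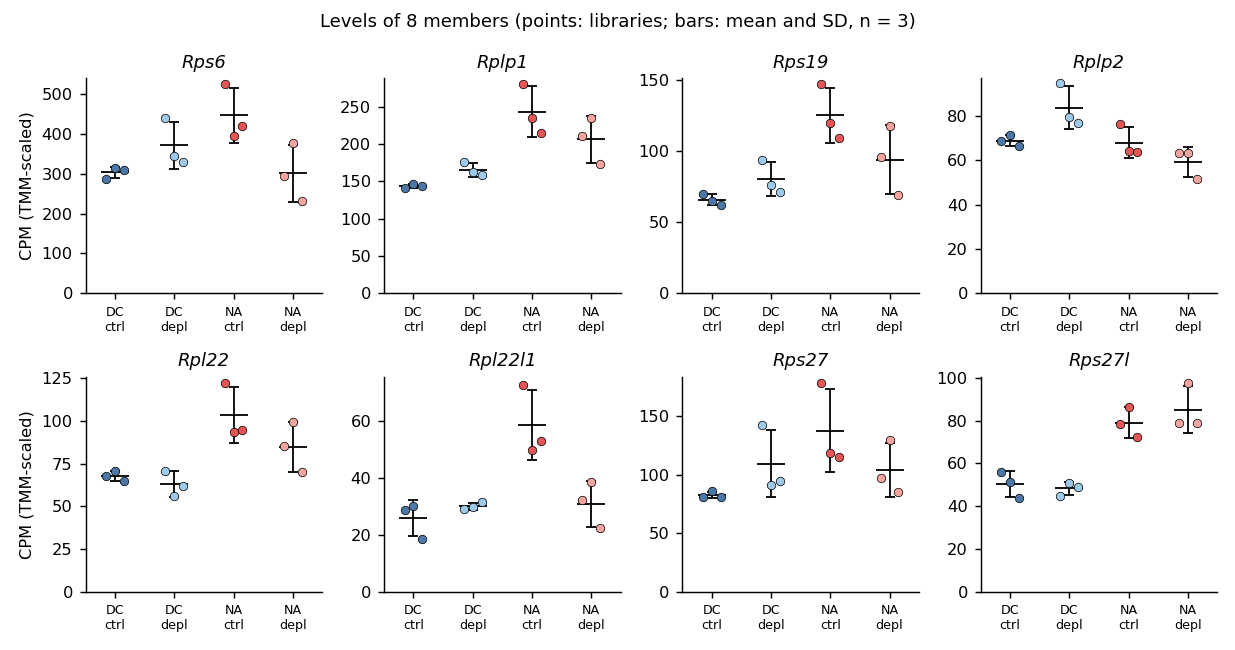
CPM (y axis, TMM-scaled, from 0) of 8 members in the 4 groups (DC, DEN+CCl4; NA, N-Ras+AKT; ctrl, control; depl, depletion), with points for libraries and bars for the mean and SD, n = 3. Rps6, Rplp1 and Rps19 are highest in the N-Ras+AKT controls, Rplp2 is highest in the DEN+CCl4 depletion libraries, and Rps27l is high in both N-Ras+AKT groups.

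To see which members departed from the rest, the table was fitted again with the members' summed counts as library size, so that a shift shared by all of them drops out. Rplp2 was then lower in N-Ras+AKT than in DEN+CCl4, by 0.60 between the controls (SE 0.16, adjusted p = 0.00713) and by 0.48 between the depletion groups (SE 0.16, adjusted p = 0.0453). Rpl22l1 was higher in the N-Ras+AKT controls than in the DEN+CCl4 controls (log2 0.59, SE 0.20, adjusted p = 0.0249) and fell by 0.61 with depletion in N-Ras+AKT (SE 0.20, adjusted p = 0.0389). Rps27l was higher in N-Ras+AKT depletion than in DEN+CCl4 depletion (log2 0.82, SE 0.20, adjusted p = 0.00882). These were 2, 1 and 2 of 80 members for the controls, the N-Ras+AKT depletion and the depletion groups, where 47.4%, 23.6% and 20.4% of all genes tested passed. With depletion in DEN+CCl4, and for the difference of the effects, 0 of 80 passed, where 0.423% and 20.8% of all genes did. The 60S and 40S proteins gave no further member. The one call in N-Ras+AKT depletion ended without any of 6 libraries, among them control 3 and depletion 17, and leaving out most libraries reduced the 2 calls of the depletion groups to 1. Between the controls the count was 1 without DEN+CCl4 control 13 or N-Ras+AKT control 3, and 3 without DEN+CCl4 depletion 6 or N-Ras+AKT depletion 17.

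In 3 paralog pairs both genes were counted. Rpl22l1 per Rpl22, as a ratio of CPM, had a geometric mean of 0.372 in the DEN+CCl4 controls, 0.481 in DEN+CCl4 depletion, 0.563 in the N-Ras+AKT controls and 0.361 in N-Ras+AKT depletion. The log2 ratio was higher by 0.60 in N-Ras+AKT than in DEN+CCl4 controls and fell by 0.64 with depletion in N-Ras+AKT. An exact permutation test, 2-sided, gave p = 0.1 for each, the smallest that 3 against 3 libraries allow. Rps27l per Rps27 was at 0.608, 0.450, 0.584 and 0.828 in the same order of groups, with a log2 difference of 0.50 for depletion in N-Ras+AKT and 0.88 between the depletion groups (exact p = 0.1 each) and −0.44 for depletion in DEN+CCl4 (exact p = 0.2). Rps27 itself was at 81.2, 85.8 and 80.9 CPM, 143, 91.5 and 94.7 CPM, 179, 119 and 116 CPM, and 97.0, 129.5 and 85.4 CPM in these groups, with the block of the other members. Rpl7l1 per Rpl7 was at 0.245, 0.195, 0.175 and 0.198, with a log2 difference of −0.48 between the controls (exact p = 0.1). These 12 comparisons are one family, in which the smallest possible p does not pass a threshold of 0.05.

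The paralogs differ in sequence. Their coding sequences (GENCODE M21) were identical at 194 of 255 bases for Rps27 and Rps27l (76.1%), with a longest shared run of 11 bases. For Rpl22 and Rpl22l1 the identity was 66.9% and the longest run 26 bases, and for Rpl7 and Rpl7l1 51.7% and 10 bases. The coding sequences of Rps27 and Rps27l are shown because these genes had opposite signs in both depletion comparisons (Rps27 0.41 and −0.41, Rps27l −0.06 and 0.11, none past the test). The sign of Rps27l changed with library totals (0.07 and −0.09), where the medians of all genes tested were 0.12 and −0.23. Bases in capitals differ between the genes.
Rps27: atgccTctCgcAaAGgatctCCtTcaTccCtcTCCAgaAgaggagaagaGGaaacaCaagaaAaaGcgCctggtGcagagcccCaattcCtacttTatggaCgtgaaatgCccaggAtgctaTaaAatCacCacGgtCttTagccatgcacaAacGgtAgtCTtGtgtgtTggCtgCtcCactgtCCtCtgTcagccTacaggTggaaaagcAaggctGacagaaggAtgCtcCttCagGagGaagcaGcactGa
Rps27l: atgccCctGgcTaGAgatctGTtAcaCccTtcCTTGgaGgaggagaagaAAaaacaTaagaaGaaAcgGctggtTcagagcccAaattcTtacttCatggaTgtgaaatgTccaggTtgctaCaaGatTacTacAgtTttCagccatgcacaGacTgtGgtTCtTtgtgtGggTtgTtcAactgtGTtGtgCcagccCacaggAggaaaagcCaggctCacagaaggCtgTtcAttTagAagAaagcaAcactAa
The differing bases are spread over the whole coding length.

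For 3 members the counts were divided between the gene and processed pseudogenes, copies of its mRNA in the genome. Rps2, of the 40S body near the mRNA entry, was at 185, 185 and 366 CPM in the DEN+CCl4 controls, 240.3, 233 and 211 CPM in DEN+CCl4 depletion, 234, 220.4 and 364 CPM in the N-Ras+AKT controls and 228, 447 and 404 CPM in N-Ras+AKT depletion. The 4 highest libraries were those in which Rps2-ps13 was at 0.203 to 0.541 CPM, whereas it was at 134 to 180 CPM in the other 8. With the pseudogenes added, Rps2 was at 345 to 452 CPM in all 12 libraries. Rps3a1 shared its counts with Rps3a2 and Rps3a3 in DEN+CCl4 controls 7 and 8 and depletion 9, and Rpl3 with Rpl3-ps1 in 5 libraries (40.4 to 57.0 CPM of the pseudogene).

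The transcripts are close to identical: 97.8% of aligned bases for Rps2-ps13, 99.5% for Rps3a2 and 99.8% for Rpl3-ps1. The share of such counts reached 47.4% for Rps2, 36.7% for Rps3a1 and 20.4% for Rpl3 in a library, and at most 5.51% for the other 51 members with named pseudogenes. Values of these 3 genes are therefore uncertain as deposited. With pseudogene counts added, an alternative chosen after seeing the data, Rps2 changed sign for depletion in DEN+CCl4 (0.28, SE 0.12, adjusted p = 0.230) and for the difference of the effects (−0.16). Rpl3 then fell with depletion in N-Ras+AKT (log2 −0.44, SE 0.15, adjusted p = 0.0487), for 3 calls in place of 2. The difference of Rps3a1 between the controls went from 0.87 to 0.50 (adjusted p = 0.0177), and 64 members passed there.

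**Figure D5:**
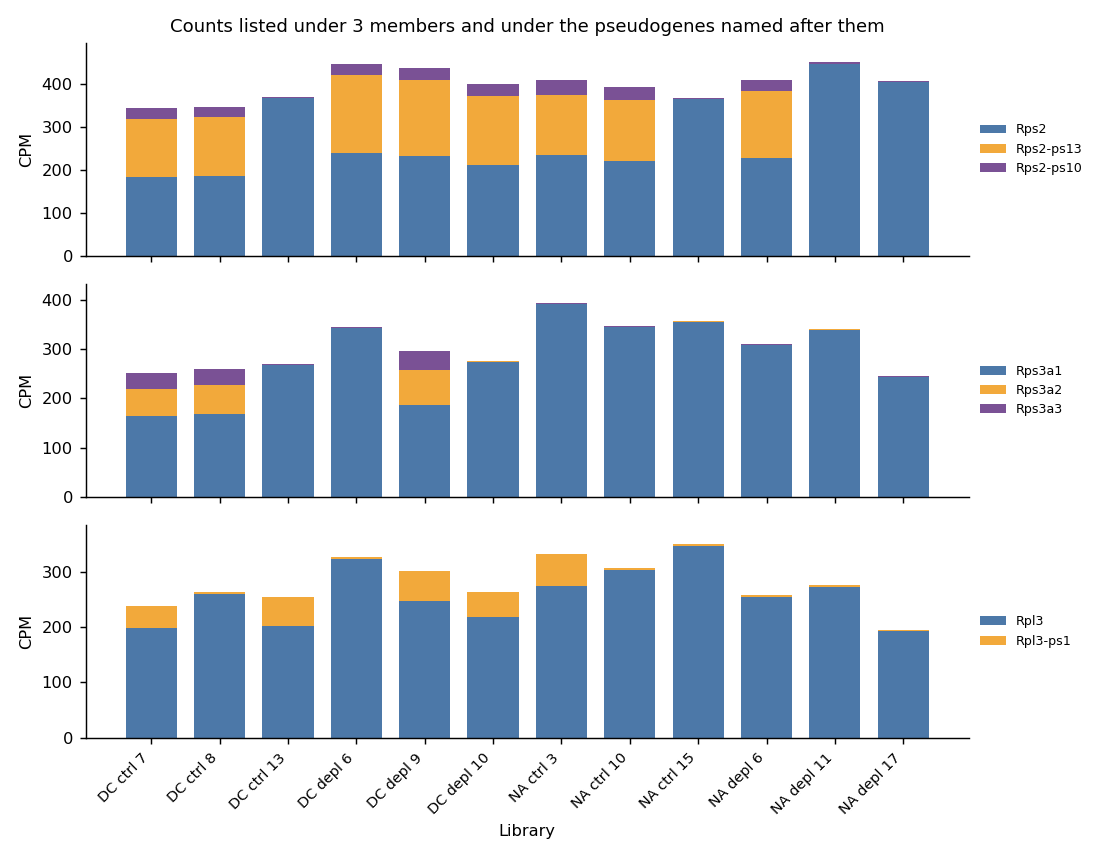
CPM (y axis, from 0) listed under Rps2, Rps3a1 and Rpl3 (blue) and under the pseudogenes named after them (orange and purple) in 12 libraries (x axis; DC, DEN+CCl4; NA, N-Ras+AKT). The stacked bars vary less than the blue parts, and the blue part alone is tallest for Rps2 where Rps2-ps13 is near 0.

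Other genes of translation were counted from lists of their own. Their counts between the controls stand beside the 20.8% of all genes tested that passed as higher and the 19.8% as lower. Ribosomal proteins outside the naming rule included Fau, Rack1 and Rpl36al. Between the controls, Fau passed as higher in N-Ras+AKT (log2 0.54, SE 0.19, adjusted p = 0.0401), and Rack1 and Rpl36al did not. With depletion in N-Ras+AKT, Rack1, a scaffold protein of the 40S subunit, fell by 0.50 (SE 0.17, adjusted p = 0.0490). It was at 308 ± 35.7 CPM in the controls and 217 ± 45.3 CPM after depletion (SD, n = 3). Rpl36al passed in no comparison, with its largest difference at 0.28 (log2, SE 0.16, adjusted p = 0.203) between the depletion groups.

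Other mRNAs with a 5′ TOP motif were higher in the N-Ras+AKT than in the DEN+CCl4 controls in 15 of 25 and lower in 0, with a median of 0.55. Among them were Nap1l1, a histone chaperone (log2 0.73, SE 0.11, adjusted p = 0.000412), Snhg5, a snoRNA host gene (1.73, SE 0.30, adjusted p = 0.00108), and Npm1, a nucleolar protein (1.00, SE 0.18, adjusted p = 0.00110). Of 55 ribosome biogenesis genes 28 passed as higher and 1 as lower (median 0.33), led by Pno1, a 40S assembly factor (0.81, SE 0.10, adjusted p = 0.000122), Nhp2 (1.16, SE 0.17, adjusted p = 0.000325) and Nop56 (0.93, SE 0.14, adjusted p = 0.000513), proteins of small nucleolar particles. Of 36 initiation factors 17 passed as higher and 2 as lower (median 0.25). Of 9 tested genes on the elongation factor list, not all of which encode such factors, 3 passed as higher (median 0.13). The smallest adjusted p there was that of Eef1e1 (1.01, SE 0.15, adjusted p = 0.000460). The most abundant gene on that list, Eef1a1, differed by −0.07 (SE 0.18, adjusted p = 0.768).

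Genes of the mTORC1 and S6 kinase pathway passed in both directions, 3 higher and 6 lower of 16. Akt1 was higher by 4.39 (SE 0.17, adjusted p = 1.94e-07) in the N-Ras+AKT controls. The model carries an AKT plasmid, and whether its reads were counted under Akt1 was not tested. Eif4ebp2, a translation repressor that mTORC1 inactivates, was lower by 1.45 (log2 −1.45, SE 0.14, adjusted p = 3.83e-05), as was Larp1, which binds the TOP motif (log2 −0.79, SE 0.11, adjusted p = 0.000283). Proteins of the mitochondrial ribosome, which is built from other genes, passed as higher in 27 of 78 and lower in 2 (median 0.19), and the 13 mitochondrially encoded mRNAs as lower in 7 (median −0.62). Since ribosomal protein mRNAs are short, 1079 other short genes were counted too: 393 passed as higher and 90 as lower, with a median of 0.37, below the 0.60 of the members.

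Between the depletion groups 17.9% of all genes tested passed as higher and 15.8% as lower. The short genes passed as higher in 396 and lower in 51, with a median of 0.39, and the mitochondrial ribosomal proteins as higher in 37 of 78 and lower in 0 (median 0.33). The members, at a median of 0.02, were near the other TOP mRNAs (0.01, 1 higher and 1 lower of 25) and the biogenesis genes (0.07, 10 higher and 3 lower of 55).

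With depletion in N-Ras+AKT, 4 of 25 other TOP mRNAs fell and 0 rose (median −0.26), among them Hnrnpa1, an RNA-binding protein (log2 −0.75, SE 0.17, adjusted p = 0.0114), and Nap1l1 (−0.34, SE 0.11, adjusted p = 0.0393). These counts stand beside 10.8% of all genes tested that passed as lower and 12.8% as higher. Of the biogenesis genes 3 of 55 fell and 0 rose (median −0.14), a share below that of all genes, with Nop56 at −0.56 (SE 0.14, adjusted p = 0.0176). Of the mitochondrial ribosomal proteins 10 of 78 passed as higher and 1 as lower (median 0.10), with the share of higher ones at that of all genes. Of the mitochondrially encoded mRNAs 12 of 13 rose (median 0.78). Of the mTORC1 list 4 of 16 rose and 2 fell, with Mtor at 0.59 (SE 0.13, adjusted p = 0.0106) and Akt1 at −0.98 (SE 0.15, adjusted p = 0.00341). With depletion in DEN+CCl4 no gene of these lists passed, apart from 2 higher and 2 lower of the 1079 short genes.

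The p53 pathway was listed for its link to ribosomal stress, in which free ribosomal proteins bind Mdm2. Between the controls 5 of 9 genes passed as higher in N-Ras+AKT, Rps27l included, and 1 as lower (20.8% and 19.8% of all genes tested). Cdkn1a, the cell cycle inhibitor p21, was higher by 1.54 (SE 0.20, adjusted p = 0.000182), whereas Mdm2 differed by 0.01 (SE 0.08, adjusted p = 0.958). With depletion in N-Ras+AKT, Phlda3 (log2 −1.63, adjusted p = 0.0132), Trp53 (−0.38, adjusted p = 0.0167) and Cdkn1a (−0.62, adjusted p = 0.0386) fell, and Rps27l did not pass. Between the depletion groups 2 of 9 passed edgeR's test as higher in N-Ras+AKT, Rps27l included, and 2 as lower (17.9% and 15.8% of all genes tested). Trp53 was among the lower ones (log2 −0.34, adjusted p = 0.0198), and Cdkn1a did not pass (0.47, adjusted p = 0.0824).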

How the data were processed

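Counts per gene for 12 bulk libraries were used as the authors deposited them, whole numbers without normalization in 1 table. Per the labels' protocols, RNA of frozen tissue was turned into poly-A libraries (KAPA mRNA HyperPrep) and read on a NovaSeq. The submitters' processing notes name STAR 2.7.3, RSEM 1.3.1 and Cell Ranger 3.0.2, with mm10 as build. For the counting tool, annotation and strand setting nothing is given in the sources used here, and genes that overlap on either strand can share counts. The deposited counts may be rounded estimates in which a model divides reads of near-identical genes. Of 55335 genes, 55154 matched GENCODE M21 by identifier, and the 181 others held 0.0064% of counts.

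Group labels came from the sample titles. A joint model of the 4 group means over all 12 libraries was fitted with edgeR 4.0.16 in R 4.3.3 (TMM, filterByExpr, robust quasi-likelihood, 8 residual degrees of freedom, common biological coefficient of variation 0.238). It tested 17013 genes in 5 contrasts, 2-sided, with Benjamini-Hochberg adjustment. A standard error (SE) is the one the F statistic implies. The fit was tested on simulated data. Alternatives were DESeq2 1.42.0 and its size factors, library totals, TMM without the members, no low-count filter, the ribosomal RNA gene removed, only the groups compared, and libraries left out.

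The genes named were the 3 markers, the 6 members highest and lowest among those that passed in each contrast (otherwise the 2 most extreme), paralogs, the 5 highest and lowest per length, and up to 3 genes with the smallest adjusted p per list. Rps15a, Rps3a1, Eef1a1 and Mdm2, Rpsa with depletion in DEN+CCl4, Rps2 and Rpl8 between the controls, and the pseudogene results were named after their values were seen. Members and lists were chosen with earlier results of these data known. Sequences are from RefSeq (GRCm38.p6) and GENCODE M21. The 6 samples of single cells were left out. A gene of these lists is not reported here.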

Additional observations from a re-analysis of the deposited data

Results flagged for a closer look

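In 2 members the effect of Prom1 depletion differed between the tumour models by the test of the difference itself. Of these 2 calls, 0 held in each of the 12 fits that left out 1 library. The models also differ in the time after the last tamoxifen dose (16 and 6 days), so model and time cannot be told apart. Rpl22l1, the paralog of Rpl22, had a difference of −1.14 (log2, N-Ras+AKT minus DEN+CCl4, edgeR adjusted p = 0.0387), from 0.22 in DEN+CCl4 and −0.92 in N-Ras+AKT. Rpl12, of the stalk base, had a difference of −1.06 (adjusted p = 0.0323), from 0.50 and −0.56. The groups of 3 libraries are too small to look for single libraries far from the others.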

How the results depend on the processing

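Of the results for single members, 912 kept direction and side of the threshold under an alternative, 67 lost a call, 15 gained one and 26 changed sign. The 912 include members that had no call in either fit, and fits that left out a library of a group not compared. They are therefore no measure of stability. Of the summary values, 213 stayed within their limits and 65 moved, the latter mostly counts of calls. Why they moved was not tested. For member medians the limit was the 0.20 spread between libraries. The median for depletion in N-Ras+AKT thus counted as within it at −0.18 without depletion 17, in place of −0.31. With library totals in place of TMM factors, 31 members were called for depletion in N-Ras+AKT, 64 for the difference of the effects and 16 between the depletion groups. Of 17013 genes, 4553, 2970 and 6765 were called in the same order. The member medians were then −0.93 for the difference of the effects, 1.25 between the controls and 0.34 between the depletion groups, while the median of all genes shifted to −0.36, 0.68 and 0.35. On that scale the signs changed for Rpl22 (0.021), Rps2 (0.034) and Rps27l (0.068) in DEN+CCl4 depletion and for Rps27l in N-Ras+AKT depletion (−0.091). The medians of all genes tested were 0.12 and −0.23 in these comparisons. Signs also changed for Rps27l in the difference of the effects (−0.16) and for Rplp2 between the controls (0.63). Between the depletion groups they changed for Rps27 (0.24) and Rps6 (0.012). DESeq2 called 2 members in DEN+CCl4 depletion, 7 in N-Ras+AKT depletion and 25 for the difference of the effects. Over all genes it called 1038 of 16773, 4708 of 18555 and 2907 of 18108 in the same order. A fit of only the groups compared called 1 member in N-Ras+AKT depletion and 2 between the depletion groups, with Rpl7l1 at −0.0092 between the controls. Over all genes that fit called 2626 of 16516 and 4611 of 15741. Without a low-count filter 1 member was called for the difference of the effects, and 1608 of 30644 genes. Leaving out both DEN+CCl4 depletion 6 and N-Ras+AKT depletion 17 gave 0 calls in N-Ras+AKT depletion and 0 for the difference of the effects (median −0.37). These libraries were picked by their member levels, so smaller depletion effects follow from the choice. In that fit Rpl22 was at 0.032 for the difference, Rpl7l1 at −0.016 between the controls and Rps27 at 0.25 between the depletion groups. Pseudogene counts added to their gene, an alternative chosen after seeing the data, turned Rps2 to 0.28 in DEN+CCl4 depletion and −0.16 for the difference of the effects. With each library left out in turn, the count of members called ran from 0 to 28 for depletion in N-Ras+AKT, 0 to 39 for the difference of the effects, 40 to 66 between the controls and 2 to 5 between the depletion groups, and it was 0 throughout in DEN+CCl4 depletion. Relative to the summed members it ran from 0 to 1 in N-Ras+AKT depletion and for the difference of the effects, 1 to 3 between the controls and 1 to 2 between the depletion groups. Signs changed in such fits for Rps2 (−0.27 to 0.31) and Rps27l (−0.15 to 0.017) in DEN+CCl4 depletion, Rps27l in N-Ras+AKT depletion (−0.00061 to 0.18), Rpl7l1 (−0.020 to 0.064) and Rplp2 (−0.11 to 0.025) between the controls, and Rpl22l1 (−0.14 to 0.21) and Rps27 (−0.26 to 0.16) between the depletion groups. No paired analysis was possible because the groups compared share fewer than 2 replicate numbers. Without the ribosomal RNA gene the members' share in the DEN+CCl4 controls was 1.01%, and with all exons as length the median level was 88.7 CPM per kilobase. Every member had at least 19295 counts over the 12 libraries, and the spread between the libraries of a group was 0.20 (log2, member median).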
